A study of Mus musculus with 18 samples.

Results

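RNA-seq counts from whole mouse striatum were used to ask whether losing 1 allele of CK2α' changes the striatal transcriptome differently in zQ175 mice than in mice without the zQ175 allele. The quantity reported here is the interaction of the 2 genotypes. For each gene it is the log2 fold change from zQ175 to zQ175:CK2a'(+/-) minus the log2 fold change from WT to CK2a'(+/-). All 18 libraries of the series entered 1 fit, in which 20914 of 55421 annotated genes had enough counts to be tested. A positive interaction means that the change upon CK2α' allele loss was more upward in zQ175 mice, and a value of 0 means that the effects of both alleles simply added up on the log2 scale.

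The groups were 5 WT, 3 CK2a'(+/-), 5 zQ175 and 5 zQ175:CK2a'(+/-) mice of a C57BL/6 background aged 12 to 14 months, with 1 library per mouse. zQ175 mice carry, on 1 allele, a human huntingtin exon 1 with an expanded CAG repeat knocked into the mouse Htt gene, so the mutant protein is made wherever Htt is expressed. CK2a'(+/-) mice lack 1 allele of Csnk2a2 in every cell and were backcrossed to C57BL/6J. All mice were perfused with heparinized saline under Avertin before the striatum was taken.

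CK2 is a constitutively active serine and threonine kinase built from a pair of catalytic subunits, CK2α (gene Csnk2a1) or CK2α' (gene Csnk2a2), and a dimer of the regulatory subunit CK2β (gene Csnk2b). CK2α' is most abundant in brain and testis. Huntington's disease affects the striatum first, where the projection neurons lose the transcripts of their dopamine, adenosine and opioid signaling, and CK2 phosphorylates, among many substrates, the stress transcription factor HSF1 and proteins of the postsynaptic density.

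Total counts per library ranged from 13612381 to 22702547, and levels are given below as CPM, counts scaled to the TMM-normalized library size. The libraries labelled WT replicates 4 and 5 stood apart from the rest of their group. In 39 of 48 tested striatal projection neuron genes both libraries lay below each of the 3 other WT libraries, and in 42 of 48 both lay within the range of the 10 libraries with the zQ175 allele. For Scn4b, a sodium channel subunit of these neurons, they held 239 and 210 CPM, where the other WT libraries held 478 to 687 CPM and the zQ175 and zQ175:CK2a'(+/-) libraries 159 to 278 CPM. Tmc3, a transmembrane channel-like gene, showed the converse, with 10.6 and 12.7 CPM in the 2 libraries, 1.395 to 3.68 CPM in the other WT libraries and 6.25 to 12.6 CPM in the libraries with zQ175. The data of these libraries therefore go against their label in projection neuron genes and Tmc3. This did not hold for all lists, since for summed lysosome and myelin genes they lay with the other WT libraries, above all zQ175 libraries. Lysosome genes summed to 2687 and 2826 CPM in them and to 2262 to 2466 CPM in zQ175. Oligodendrocyte and myelin genes summed to 6812 and 7446 CPM in them and to 4516 to 6669 CPM in zQ175. Both libraries were kept in the WT group as labelled, and results that moved without both are also given that way. Tissue neighboring the striatum was unequally sampled too, with choroid plexus markers summing to 1684 to 4805 CPM in WT replicates 1 and 3, CK2a'(+/-) replicate 1 and zQ175:CK2a'(+/-) replicate 2 and to at most 290.5 CPM elsewhere. Summed Y-linked genes were at 186 to 201 CPM in 7 libraries (1 of 5 WT, 2 of 3 CK2a'(+/-), 3 of 5 zQ175 and 1 of 5 zQ175:CK2a'(+/-)) and at most 0.667 CPM in the other 11, so the sex of the mice moved with the interaction. The study's methods state that both sexes were used in every group in unequal numbers. In zQ175 replicate 3, which held Y-linked transcripts, Xist was at 47.0 CPM, against at most 8.17 CPM in the other libraries with Y-linked transcripts, so the Xist and Y-linked covariates used below differ for this library.

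**Figure D1:**
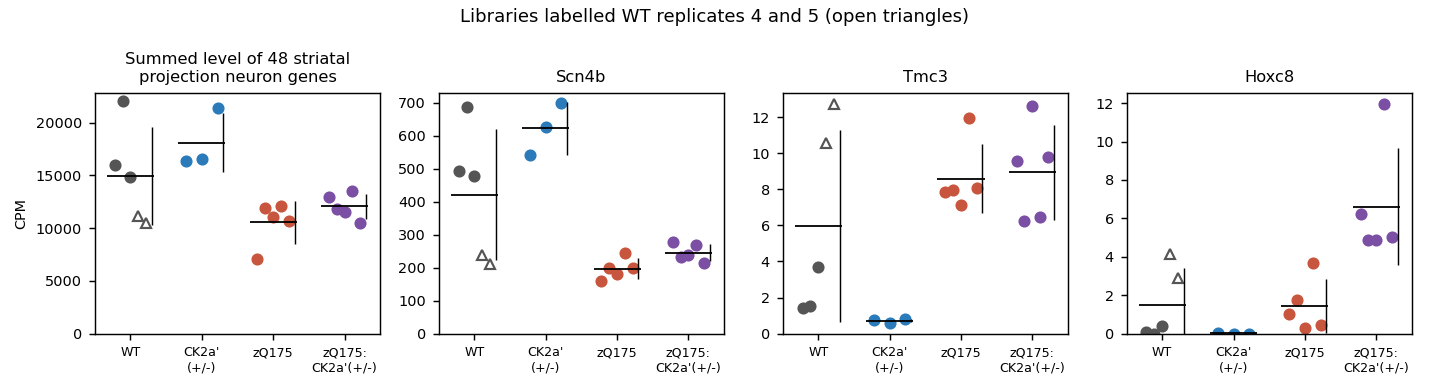
Each point is 1 library, grouped by genotype, and the vertical axes give CPM from 0 for the summed striatal projection neuron genes, Scn4b, Tmc3 and Hoxc8. Horizontal bars are group means and vertical lines 1 SD, and open triangles mark the libraries labelled WT replicates 4 and 5, which lie among or, for Tmc3, at the upper end of the libraries with zQ175 in all 4 panels.

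The targeted gene checked the genotypes first. Csnk2a2 (chromosome 8, 95446096 to 95490039, GRCm38, minus strand) held 29.4, 35.0, 32.7, 30.4 and 30.5 CPM in the WT libraries and 17.4, 14.7 and 18.02 CPM in the CK2a'(+/-) libraries. It held 33.6, 32.0, 37.5, 37.0 and 34.7 CPM in zQ175 and 18.3, 16.3, 19.9, 17.9 and 15.8 CPM in zQ175:CK2a'(+/-). No library with the deleted allele overlapped a library without it, and WT replicates 4 and 5 sat with the other WT libraries for this gene. Csnk2a2 fell by 0.92 on the log2 scale without zQ175 (adjusted p = 0.000897) and by 0.99 with it (adjusted p = 1.61e-05), so the interaction was -0.06 ± 0.14 (SE) with a 95% interval of -0.36 to 0.23. The other subunits had no interaction past the threshold either, with -0.02 ± 0.16 for Csnk2a1 and 0.17 ± 0.13 for Csnk2b, which was 0.05 without WT replicates 4 and 5. Htt itself had a log2 interaction of -0.33 ± 0.14 (unadjusted p = 0.0305, adjusted p = 0.916), which was -0.19 without WT replicates 4 and 5 (unadjusted p = 0.156).

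Across the transcriptome, 1 gene passed the threshold of a Benjamini-Hochberg adjusted p (FDR) under 0.1, which is 0.00478% of the genes tested. Unadjusted p-values under 0.05 were obtained for 1127 genes, 5.389% of those tested, of which 608 (2.91%) had a positive and 519 (2.48%) a negative interaction. Without WT replicates 4 and 5, no gene passed with edgeR among 20629 tested, and 452 genes (2.19%) with a positive and 445 (2.16%) with a negative interaction had an unadjusted p under 0.05. DESeq2 called 19 genes with all libraries and 1 gene without those 2. The median standard error of a gene's log2 interaction was 0.32, against 0.21 for allele loss within zQ175 and 0.24 for allele loss without it, so the interaction was the least precise of these contrasts.

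The component effects were small as well. Loss of the CK2α' allele called 3 genes within zQ175 (0.0143% of those tested) and 3 genes without zQ175 (0.0143%), and these comparisons share no library. Csnk2a2 and 4933406B17Rik were called in both. The latter is a long noncoding RNA of the plus strand that starts at position 95496430 of chromosome 8, next to the 5′ end of Csnk2a2. 4933406B17Rik was higher by 3.68 and by 3.81 on the log2 scale, and its interaction of -0.12 ± 1.05 was not past the threshold. Without WT replicates 4 and 5, the loss without zQ175 called Csnk2a2 alone, with adjusted p = 0.517 for 4933406B17Rik and 0.252 for Crnde with edgeR. Nr4a2, an orphan nuclear receptor induced by neuronal activity, was the third gene within zQ175, and Crnde, a long noncoding RNA, was the third gene without zQ175. With edgeR on all libraries the interaction passed for neither of these, with adjusted p = 0.904 for Nr4a2 and 0.194 for Crnde. Crnde was called with DESeq2, with edgeR and no filter on low counts, and with edgeR without WT replicate 3.

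Across the 20914 genes, the 2 effects of allele loss had a Pearson correlation of -0.04 and a Spearman correlation of -0.01, and a Pearson correlation of -0.07 without WT replicates 4 and 5. These correlations run across genes, which are not independent replicates. Of the 608 genes with a positive interaction at p under 0.05, 580 had opposite signs in the 2 backgrounds, which the selection favors. Among them, 209 had an unadjusted p under 0.05 for allele loss within zQ175 alone, 188 without zQ175 alone, 18 in both and 193 in neither. For the 519 genes with a negative interaction these numbers were 205, 146, 19 and 149.

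**Figure D2:**
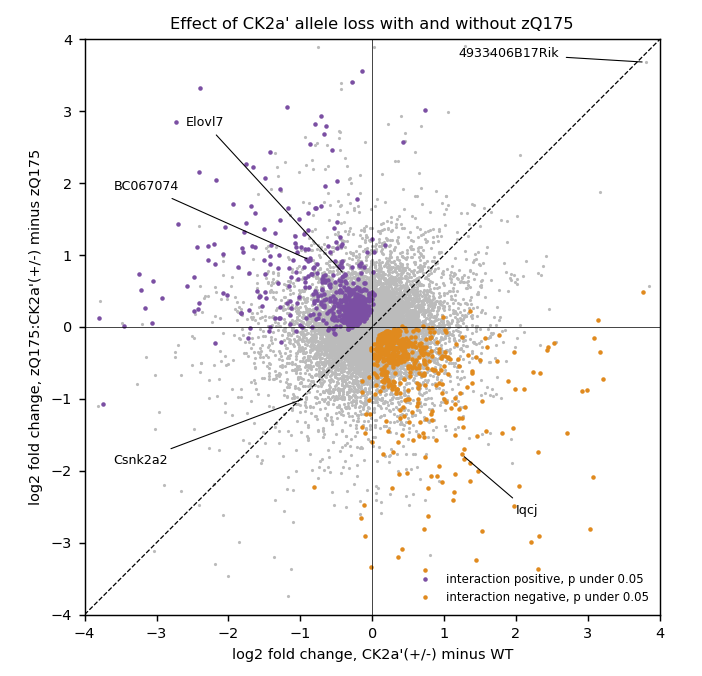
Each point is 1 of 20914 genes, with the log2 fold change of CK2α' allele loss without zQ175 on the horizontal and within zQ175 on the vertical axis (56 genes lie beyond the axis limit of 4). Purple and orange mark unadjusted interaction p-values under 0.05. Csnk2a2 and 4933406B17Rik lie on the dashed diagonal of equal effects, and BC067074 lies away from it.

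The gene that passed was BC067074 (ENSMUSG00000021763, chromosome 13, 113293159 to 113379711, GRCm38, plus strand), a locus named only by its cDNA clone that overlaps no other counted gene. Its level was 13.5, 12.7, 11.9, 15.9 and 12.1 CPM in WT and 7.42, 7.83 and 6.47 CPM in CK2a'(+/-) libraries. It was 6.56, 13.9, 9.29, 10.7 and 8.07 CPM in zQ175 and 18.9, 24.7, 13.4, 21.4 and 13.9 CPM in zQ175:CK2a'(+/-) libraries. The CK2a'(+/-) libraries were thus all below the WT libraries, whereas the zQ175:CK2a'(+/-) libraries were higher than all but the highest of the zQ175 libraries. The log2 interaction was 1.79 ± 0.29 (95% interval 1.18 to 2.41), made up of a log2 change of -0.86 without zQ175 and of 0.93 within it (adjusted p = 0.0951 for the interaction with edgeR). It was 1.74 without WT replicates 4 and 5 (adjusted p = 0.528) and 1.63 with the Xist level as a covariate (adjusted p = 0.427), so the value stayed within 1.53 to 1.79 in these fits and with the Y-linked level as a covariate, while the call depended on the fit. DESeq2 called it with all libraries (adjusted p = 1.35e-05) and without those 2 (adjusted p = 0.00393).

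Since fewer than 20 genes passed, the 10 named genes with the lowest p in each direction and a mean of at least 1 CPM are described next, none of which passed the threshold with edgeR (adjusted p 0.194 to 0.811). DESeq2 with all libraries called Crnde, Hoxc8, Rbbp8, Asap3, Cryab, Tmc3, Abcb1a, Adgrf5 and Col5a1 among them, and without WT replicates 4 and 5 none of the 20. All 20 had the same direction and an unadjusted p under 0.05 without WT replicates 4 and 5, and with the Xist or Y-linked level as a covariate. In 10 of the 20 the CK2a'(+/-) libraries did not overlap the WT libraries, as in 3.2% of all genes tested, and in 4 the zQ175:CK2a'(+/-) libraries did not overlap the zQ175 libraries, as in 1.14% of all genes. Because these genes were chosen on the interaction, their separation is a description. Of the 20, Elovl7, Col5a1, Pgm2l1, Erc1 and Cpne4 are also on the list of genes that the study called between zQ175 and zQ175:CK2a'(+/-), so their differences between these groups are not independent of that choice.

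Among the 10 with a positive interaction, the larger part of it came from mice without zQ175 in 8. Crnde was at 0.997, 1.06, 0.545, 2.04 and 2.18 CPM in WT and at 0.152, 0.131 and 0.0667 CPM in CK2a'(+/-) libraries. It was at 1.83 to 3.82 CPM in zQ175 and at 2.30 to 4.30 CPM in zQ175:CK2a'(+/-). Hence it was lowest in every CK2a'(+/-) library and overlapped between the groups with zQ175, where allele loss had a log2 change of 0.02, with a log2 interaction of 3.47 ± 0.63 that was 2.81 without WT replicates 4 and 5. Crnde lies on chromosome 8, 3.09 megabases from Csnk2a2, and overlaps Gm21817 on the same strand, so reads may be shared. Tmc3 followed the same order, with means of 5.98 ± 5.32 (SD, n = 5), 0.724 ± 0.0986 (n = 3), 8.58 ± 1.91 (n = 5) and 8.94 ± 2.64 CPM (n = 5) in WT, CK2a'(+/-), zQ175 and zQ175:CK2a'(+/-), but its log2 interaction of 3.12 ± 0.75 rested in part on WT replicates 4 and 5 and was 1.65 without them.

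Hoxc8, a homeobox gene of trunk identity that adult striatum does not normally use, rested on very few reads. It had 1 count in all over the 3 CK2a'(+/-) libraries, 164 counts over the 5 WT libraries, 121 over the zQ175 libraries and 568 over the zQ175:CK2a'(+/-) libraries. Its level was 0 to 0.408 CPM in WT replicates 1 to 3 and 4.13 and 2.92 CPM in WT replicates 4 and 5. The zQ175:CK2a'(+/-) libraries were all above the zQ175 libraries, and no fold against CK2a'(+/-) is given because of the near absence of counts there.

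Rbbp8, which starts the resection of DNA breaks, was at 4.98 to 9.68 CPM in WT and 2.67 to 3.59 CPM in CK2a'(+/-), against 4.62 to 7.45 CPM in zQ175 and 5.29 to 8.76 CPM in zQ175:CK2a'(+/-). Asap3, a GTPase-activating protein for Arf, was at 3.79 to 5.99 CPM in WT and 1.92 to 2.98 CPM in CK2a'(+/-), and its groups with zQ175 overlapped. Both therefore separated WT from CK2a'(+/-) but not zQ175 from zQ175:CK2a'(+/-), with log2 interactions of 1.40 ± 0.32 and 1.37 ± 0.32. Tradd, an adaptor of the tumor necrosis factor receptor, and Pea15a, a death effector domain protein of astrocytes, had the same form with interactions of 1.49 ± 0.37 and 0.44 ± 0.12.

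The remaining 3 genes had a larger or nearly equal part of the interaction in the groups with zQ175. Elovl7, a fatty acid elongase of oligodendrocytes, averaged 17.4 ± 1.93 CPM in WT, 13.3 ± 4.92 in CK2a'(+/-), 11.2 ± 2.28 in zQ175 and 18.5 ± 3.84 in zQ175:CK2a'(+/-) (SD). Cryab, the small heat shock protein αB-crystallin, averaged 90.7 ± 14.1, 72.0 ± 5.77, 57.4 ± 8.36 and 76.2 ± 9.05 CPM in the same order. Rpl11, a protein of the large ribosomal subunit, was at 22.4 to 25.8 CPM in every zQ175 library and at 27.0 to 35.5 CPM in every zQ175:CK2a'(+/-) library. The log2 interactions were 1.11 ± 0.28 for Elovl7, 0.74 ± 0.17 for Cryab and 0.71 ± 0.19 for Rpl11, which was 0.47 without the libraries with choroid plexus markers.

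**Figure D3:**
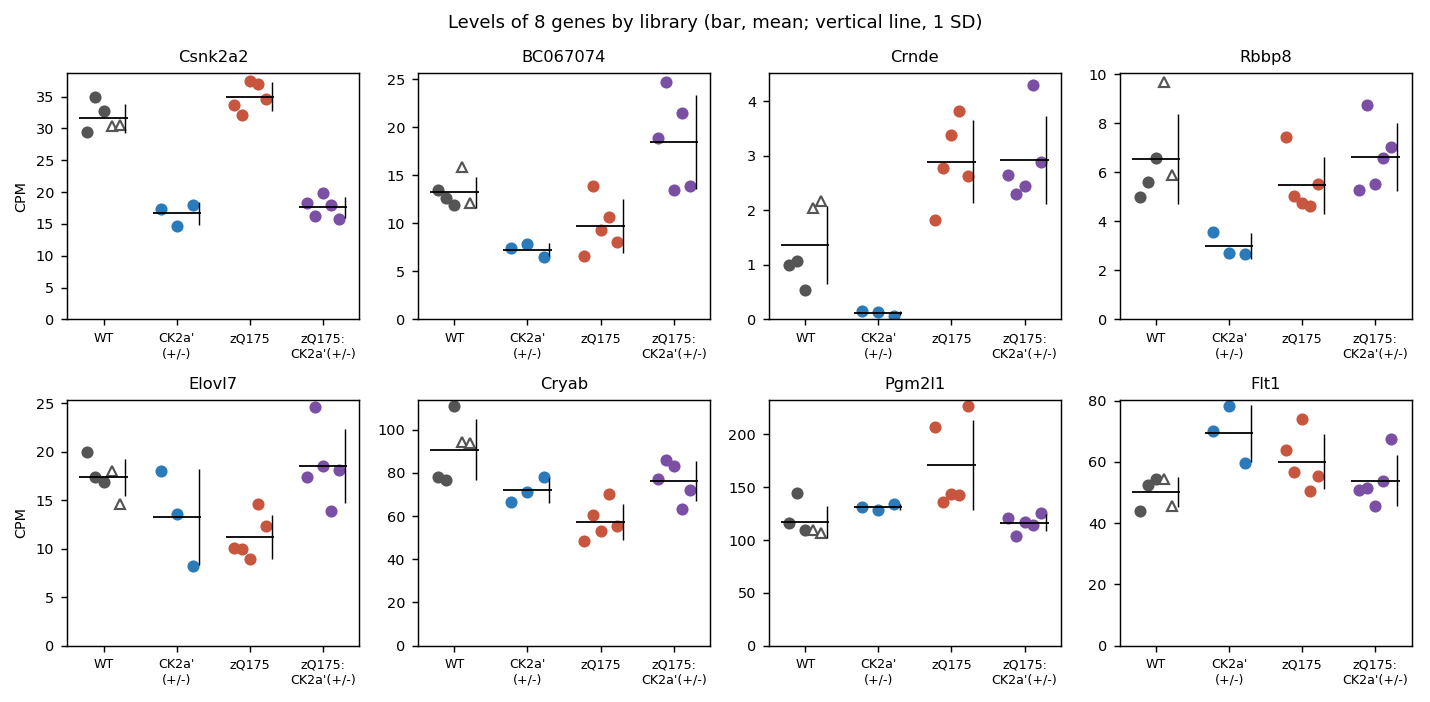
Each point is 1 library and the vertical axes give CPM from 0 for 8 genes, with group means as bars, 1 SD as vertical lines and WT replicates 4 and 5 as open triangles. Csnk2a2 was lower by a similar factor in both groups with the deletion, while BC067074 was low in CK2a'(+/-) and high in zQ175:CK2a'(+/-).

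The 10 genes with a negative interaction included 3 genes of blood vessels, with their highest means in CK2a'(+/-). Flt1, a receptor for vascular endothelial growth factors, was at 70.0, 78.3 and 59.7 CPM in the CK2a'(+/-) libraries, all above the 44.1 to 54.5 CPM of the WT libraries, and at 50.5 to 73.9 CPM in zQ175 and 45.6 to 67.6 CPM in zQ175:CK2a'(+/-). Adgrf5, an adhesion receptor of endothelium, averaged 32.0 ± 2.73 CPM in WT, 50.0 ± 11.8 in CK2a'(+/-), 37.0 ± 7.13 in zQ175 and 31.4 ± 4.90 in zQ175:CK2a'(+/-). Abcb1a, the drug efflux pump of the blood-brain barrier, averaged 14.3 ± 2.74, 23.2 ± 5.88, 18.3 ± 2.91 and 14.98 ± 1.30 CPM. The interactions were -0.62 ± 0.17 for Flt1, -0.88 ± 0.21 for Adgrf5 and -0.99 ± 0.23 for Abcb1a.

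In contrast, Pgm2l1 and Erc1 had log2 changes of 0.17 and 0.08 from WT to CK2a'(+/-) and of -0.56 and -0.40 from zQ175 to zQ175:CK2a'(+/-). Pgm2l1, a sugar phosphate mutase of neurons, was at 136 to 227 CPM in zQ175 and 104 to 126 CPM in zQ175:CK2a'(+/-), and Erc1, a scaffold of the presynaptic active zone, at 72.1 to 94.7 and 60.04 to 70.4 CPM. These are the genes among the 10 in which the groups with zQ175 did not overlap, with interactions of -0.72 ± 0.19 and -0.48 ± 0.13. The 2 highest Pgm2l1 values, 207 and 227 CPM, were those of zQ175 replicates 1 and 5, which also held the most cortical markers, and its interaction was -0.44 without them. Cpne4, a calcium-dependent membrane-binding protein, had its highest values of 37.4 and 34.3 CPM in the same libraries. Its interaction of -1.04 ± 0.28 was -0.68 without them, -0.66 with the Xist level and -0.55 with the Y-linked level as a covariate.

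The other 4 genes were Ciart, a repressor of the circadian clock, at 16.5 to 19.1 CPM in CK2a'(+/-) and 7.86 to 12.9 CPM in WT, and Fbxl21, an F-box protein that targets clock proteins, at 11.3 to 14.5 and 8.71 to 10.3 CPM. Neither overlapped between these groups, and their interactions were -1.02 ± 0.28 and -0.81 ± 0.21, with Ciart at -0.68 without zQ175 replicates 1 and 5. The collagen genes Col5a1 and Col19a1 had interactions of -1.98 ± 0.48 and -0.80 ± 0.22. Col5a1 was at 0.857 to 1.92 CPM in zQ175:CK2a'(+/-) and 1.45 to 4.73 CPM in zQ175.

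The lists of genes below were compared with the 2.91% of genes with a positive and the 2.48% with a negative interaction at an unadjusted p under 0.05. With edgeR on all libraries, no list member other than BC067074 passed the FDR threshold. DESeq2 also called Cryab, Abcb1a, Iqcj, Gm2991, Col5a1 and Gm17807, and edgeR with no filter on low counts called Slc17a7. Because the counts come from whole tissue, fewer cells of a type and less RNA per cell cannot be told apart.

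Striatal projection neuron genes, the transcripts with which Huntington's disease models are followed, had no member with an unadjusted p under 0.05 among 48, and a median log2 interaction of -0.07. Leaving out single libraries moved this median between -0.27, without WT replicate 2, and 0.05, without CK2a'(+/-) replicate 3, so its sign was not settled. Penk, the enkephalin precursor of indirect pathway neurons, had -0.04 ± 0.34 (95% interval -0.75 to 0.67), Ppp1r1b, encoding DARPP-32, 0.17 ± 0.31, Scn4b -0.24 ± 0.34, and the dopamine receptors Drd1 and Drd2 -0.16 ± 0.34 and -0.02 ± 0.32. Without WT replicates 4 and 5 the list median was 0.15, again with no member at p under 0.05, and the values were 0.28 for Penk, 0.42 for Ppp1r1b and 0.15 for Scn4b. The median effect of allele loss was 0.18 within zQ175 and 0.22 without zQ175, the latter 0.00 when WT replicates 4 and 5 were left out.

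Glutamatergic and cortical transcripts lay on the negative side. Of 32 tested cortical excitatory neuron markers, 8 had a negative interaction at p under 0.05 and none a positive one, with a median of -0.54. Of these 8, Slc17a7, Slc30a3, Grm2, Cckbr and Nr4a2 were among the genes the study called between zQ175 and zQ175:CK2a'(+/-). The count is therefore not independent of that choice. Slc17a7, the vesicular glutamate transporter of cortical neurons, was at 66.8, 29.1, 62.5, 50.4 and 202 CPM in zQ175 and 16.0, 9.26, 22.2, 4.35 and 35.5 CPM in zQ175:CK2a'(+/-). In WT it was at 11.9, 31.6, 28.0, 32.2 and 31.1 CPM and in CK2a'(+/-) at 35.1, 49.5 and 12.8 CPM, which gave an interaction of -2.51 ± 0.73. It was -1.46 with the Xist level and -1.27 with the Y-linked level as a covariate. The whole marker list summed to 950.2 and 1391 CPM in zQ175 replicates 1 and 5, to 756 to 791 CPM in the other zQ175 libraries, and to 609 to 720 CPM in every library of the other groups. Without zQ175 replicates 1 and 5, 5 of 32 markers had a negative interaction at p under 0.05, 3 of them among the 8, 1 had a positive one, and the median was -0.16. With the Xist or the Y-linked level as a covariate, 4 and 3 markers had a negative interaction at p under 0.05. Thalamic markers summed to 1890 CPM in zQ175 replicate 1 and to 134 to 932 CPM elsewhere, and 1 of 19 had a negative interaction at p under 0.05, as did 2 of 12 hippocampal markers. All 19 thalamic values were negative, with a median of -1.39. That median was -0.47 without zQ175 replicate 1, -0.08 with the Xist level and -0.02 with the Y-linked level as a covariate. Hippocampal markers summed to 370.4 CPM in zQ175 replicate 5 and to 212 to 263 CPM elsewhere, and their median of -0.51 was -0.04 without that library. With either sex-linked covariate, no thalamic or hippocampal marker had an unadjusted p under 0.05 with edgeR. The part of cortical or thalamic tissue in the neuronal results was not tested.

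The genes that the study singled out, chosen on these same samples, had 7 of 21 members with a negative and none with a positive interaction at p under 0.05, with a median of -0.38. They were Grm2, Slc17a7, Cckbr, Slc30a3, Nr4a2, Ncald and Slit1, of which all but Ncald are also on the cortical list. The count was 5 without WT replicates 4 and 5, 4 without zQ175 replicates 1 and 5, 4 with the Xist level and 3 with the Y-linked level, and the median was -0.24 without zQ175 replicate 5. Nr4a2 was at 9.97 to 14.4 CPM in every zQ175 library and at 1.22 to 4.52 CPM in every zQ175:CK2a'(+/-) library. It was at 2.31 to 9.06 CPM in WT and 2.78 to 3.37 CPM in CK2a'(+/-), and its interaction was -1.42 ± 0.53 (unadjusted p = 0.0139). The group separation of Nr4a2 did not rest on zQ175 replicates 1 and 5. With the Y-linked level as a covariate, the interaction of Nr4a2 was -1.19 and its unadjusted p with edgeR was not under 0.05. Slit1, an axon guidance ligand, was at 100 CPM in zQ175 replicate 5 and at 14.7 to 31.3 CPM in all other libraries, and its interaction of -1.13 ± 0.53 had an unadjusted p = 0.0442, or 0.0964 without WT replicates 4 and 5. The interaction of Slit1 was -0.33 without zQ175 replicate 5 and -0.10 without zQ175 replicates 1 and 5. Ncald, a neuronal calcium sensor, had -0.61 ± 0.27, with its highest values of 137 and 169 CPM in zQ175 replicates 1 and 5, and -0.40 and -0.18 without replicate 5 and without both.

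The Greenyellow co-expression module, which the study built on these samples and which is therefore not independent evidence, was matched here for 246 genes, so the list is incomplete. It had 38 of 244 tested genes with a negative and 5 with a positive interaction at p under 0.05, and a median of -0.28. Its median effect of allele loss was -0.30 within zQ175 and -0.03 without it. Without WT replicates 4 and 5 the counts were 24 and 5, and without zQ175 replicates 1 and 5 they were 13 and 6 with a median of -0.03. They were 11 and 4 with the Xist level and 9 and 4 with the Y-linked level as a covariate, with medians of -0.16 and -0.13. AMPA receptor auxiliary and scaffold proteins had 6 of 34 on the negative side and none on the positive, led by the pentraxin receptor Nptxr (-0.96 ± 0.35) and the AMPA receptor auxiliary protein Shisa6 (-1.60 ± 0.70), and 5 were on the negative side with a median of 0.00 without WT replicates 4 and 5. With edgeR, none of the 34 had an unadjusted p under 0.05 without zQ175 replicates 1 and 5, with the Xist level, with the Y-linked level or without the libraries with choroid plexus markers. Nptxr was at -0.57 without zQ175 replicate 5 and -0.35 without zQ175 replicates 1 and 5, and Shisa6 at -0.49 without the latter, -0.42 with the Xist level and -0.28 with the Y-linked level. Of 25 glutamate receptor genes, Grm2 and Grin2b had an unadjusted p under 0.05, both negative, and Grin2b, the GluN2B subunit, had -0.32 ± 0.14. Grin2b was at -0.22 without WT replicates 4 and 5 (unadjusted p = 0.114 with edgeR), where the list median of -0.17 was at -0.07, and without zQ175 replicates 1 and 5 neither gene had an unadjusted p under 0.05. The 7 synuclein and tau genes had a median of 0.00 and no member at p under 0.05.

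**Figure D4:**
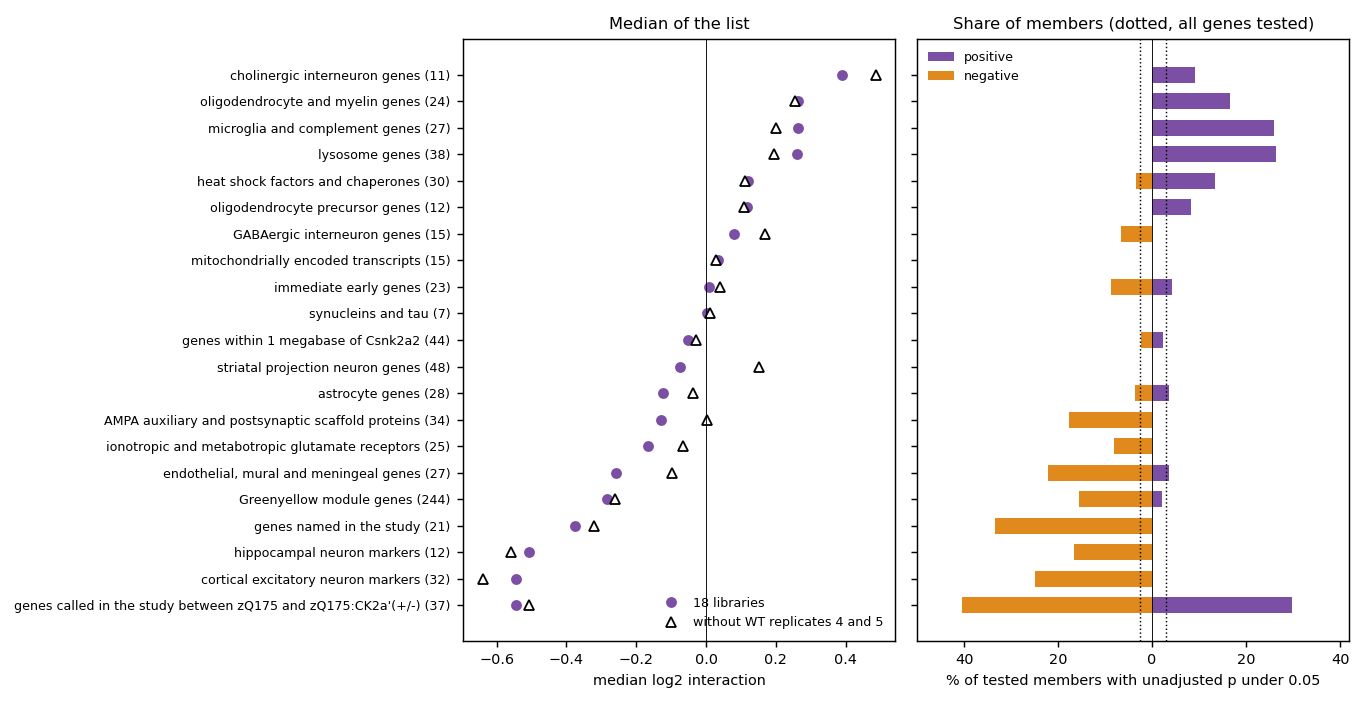
Left, the median log2 interaction of the gene lists shown with 18 libraries (circles) and without WT replicates 4 and 5 (triangles), with the number of tested members in brackets. The CK2 subunit, sex-linked, hemoglobin, choroid plexus and thalamic lists are left out of the figure. Right, the percentage of members with an unadjusted p under 0.05 on the positive (purple) and negative (orange) side, with dotted lines at 2.91% and 2.48% for all genes. Lysosome, microglia and myelin lists lie to the positive side and cortical and hippocampal lists to the negative side in both fits, while the AMPA list is at 0.00 in the fit without WT replicates 4 and 5.

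Lysosomal and microglial transcripts lay on the positive side. Of 38 lysosome genes, 10 had a positive and none a negative interaction at p under 0.05, with a median of 0.26. The count was 6 without WT replicates 4 and 5, 8 with the Xist level, 6 with the Y-linked level as a covariate and 4 without the 4 libraries with choroid plexus markers. Ctsd, the aspartic protease cathepsin D, was at 73.3, 75.8, 72.9, 79.5 and 69.5 CPM in zQ175 libraries, below every library of the other groups, which held 86.7 to 133 CPM. Npc2, a carrier of lysosomal cholesterol, was at 12.0 to 18.5 CPM in zQ175 and at 19.4 to 25.1 CPM in all other libraries. So zQ175 libraries were lowest for both, with log2 changes upon allele loss of 0.46 and 0.47 within zQ175 and of 0.02 and -0.05 without it, and with interactions of 0.44 ± 0.15 for Ctsd and 0.51 ± 0.17 for Npc2. The highest Ctsd value, 133 CPM, was that of zQ175:CK2a'(+/-) replicate 2, and the interaction of Ctsd was 0.25 without the libraries with choroid plexus markers. The membrane proteins Laptm5 and Lamp1 had 0.52 ± 0.17 and 0.30 ± 0.10. Of the 10, Ctsd, Npc2, Lyz2 and Tcn2 were among the genes the study called between zQ175 and zQ175:CK2a'(+/-). Their differences between these groups, and their part in the count of 10, are therefore not independent of that choice.

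Among microglia and complement genes, 7 of 27 had a positive and none a negative interaction at p under 0.05, with a median of 0.26. The count was 4 without WT replicates 4 and 5, 4 with the Xist level and 3 with the Y-linked level as a covariate. Of the 7, Laptm5 is also counted among the lysosome genes above. The 3 chains of C1q, which starts the classical complement pathway and tags synapses for removal, each had a positive interaction at p under 0.05. For C1qb the unadjusted p with edgeR was 0.157 without WT replicates 4 and 5. C1qa was at 13.8 to 27.2 CPM in zQ175 and at 24.7 to 28.7 CPM in zQ175:CK2a'(+/-), 26.0 to 32.5 CPM in WT and 22.9 to 27.9 CPM in CK2a'(+/-). The interactions were 0.67 ± 0.23 for C1qa, 0.79 ± 0.24 for C1qc and 0.54 ± 0.24 for C1qb, the last at 0.31 with the Y-linked level as a covariate. The summed list was 415 to 562 CPM in zQ175, with its highest value in replicate 4, and 566 to 604 CPM in zQ175:CK2a'(+/-). Allele loss had a median of 0.30 within zQ175 and of -0.03 without it.

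Oligodendrocyte and myelin genes had 4 of 24 on the positive side and a median of 0.26, led by Elovl7, by Cnp, the nucleotide phosphodiesterase of myelin (0.46 ± 0.16), and by Gjb1, a gap junction protein (0.76 ± 0.31). The median was 0.16 without CK2a'(+/-) replicate 3 and 0.16 without zQ175 replicates 1 and 5, where 2 of 24 were positive. Their summed level was 4516 to 6669 CPM in zQ175, 5085 to 6880 in zQ175:CK2a'(+/-), 6812 to 9209 in WT and 6955 to 8784 in CK2a'(+/-), so that the groups with zQ175 overlapped. Cholinergic interneuron genes had the highest median of the neuronal lists, 0.39 over 11 genes, with Ecel1, a membrane peptidase, at 0.68 ± 0.22 as the member with an unadjusted p under 0.05. Their summed level was 59.7 CPM in zQ175 replicate 1 and 99.6 to 161 CPM elsewhere, and the median was 0.20 without that library. Astrocyte genes had 1 of 28 on each side, and none of 15 mitochondrially encoded transcripts had an unadjusted p under 0.05.

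Heat shock factors and chaperones, which include targets of the CK2 substrate HSF1, had 4 of 30 on the positive side and 1 on the negative side, with a median of 0.12. With the Y-linked level as a covariate 2 were positive and the median was 0.065, it was 0.063 with the Xist level, and leaving out CK2a'(+/-) replicate 1 or 2, zQ175 replicate 2 or zQ175:CK2a'(+/-) replicate 2 gave 0.057 to 0.074. Bag3, a co-chaperone of selective autophagy, averaged 16.4 ± 1.81 CPM in WT, 14.4 ± 2.59 in CK2a'(+/-), 12.8 ± 1.87 in zQ175 and 18.2 ± 2.62 in zQ175:CK2a'(+/-), an interaction of 0.69 ± 0.20. Its partners Cryab and Hspb8 had 0.74 ± 0.17 and 0.87 ± 0.35. Hspa8, the constitutive HSC70, had 0.31 ± 0.11 in another way, because it was at 676 to 749 CPM in CK2a'(+/-) and at 810 CPM or more in every other library. Dnajb6, a J-protein that suppresses polyglutamine aggregation, was the member on the negative side with -0.54 ± 0.18. All 5 kept their direction without WT replicates 4 and 5, with an unadjusted p of 0.0525 for Hspa8 and lower values for the others.

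Since heat shock genes share a binding site of HSF1, the 250 bases before the transcription start were searched for its paired units, GAANNTTC and TTCNNGAA, which each read the same on both strands. RefSeq windows (GRCm38.p6) were found for 24 of the 30 genes, and 12 of their 35 windows (34.3%) held a match, against 12.8% of all windows. The matched stretch of Dnajb6 and the window of Hspb8 are shown to compare a member on either side, with matches in capitals. Dnajb6 held 2 overlapping matches, shown with the bases around them (chr5:29735844-29735872, plus strand), and 210 of the 250 bases of its window lie in another annotated transcript of the gene that starts further upstream. Hspb8 (chr5:116422865-116423114, minus strand) held 0 matches in this window. The window of Bag3, also on the positive side, held 0 matches, and no window was found for Cryab or Hspa8. A relation between the site and the direction of the interaction was not tested.
Dnajb6: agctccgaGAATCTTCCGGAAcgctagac
Hspb8: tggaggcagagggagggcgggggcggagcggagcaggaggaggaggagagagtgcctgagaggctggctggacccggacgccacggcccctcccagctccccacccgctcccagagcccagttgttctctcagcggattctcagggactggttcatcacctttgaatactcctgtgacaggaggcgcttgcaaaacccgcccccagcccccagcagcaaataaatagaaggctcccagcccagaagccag

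**Figure D5:**
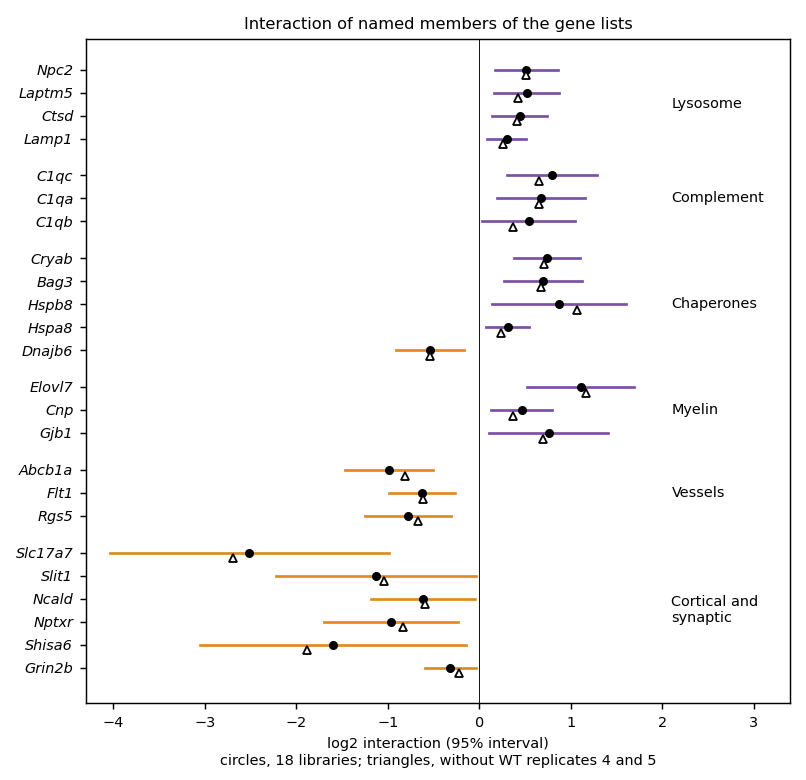
Log2 interaction of named members of the lists on the horizontal axis, with circles and 95% intervals for 18 libraries and triangles for the fit without WT replicates 4 and 5. Among the members shown, lysosome, complement and myelin genes and 4 of 5 chaperones are positive, and vessel, cortical and synaptic genes are negative, in both fits. Cldn5, the vessel gene on the positive side, is not shown.

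Endothelial, mural and meningeal genes had 6 of 27 on the negative side and 1 on the positive, with a median of -0.26. The member on the positive side was Cldn5, at 0.82 (unadjusted p = 0.0424 with edgeR). Without WT replicates 4 and 5 there were 4 and 1 with a median of -0.10, and with either sex-linked covariate 3 and 1. The median was -0.55 without the libraries with choroid plexus markers, -0.40 without WT replicate 3, and -0.14 to -0.17 without zQ175:CK2a'(+/-) replicate 3, zQ175 replicate 3 or CK2a'(+/-) replicate 2. Rgs5, a marker of pericytes, averaged 33.2 ± 4.79 CPM in WT, 48.5 ± 5.03 in CK2a'(+/-), 41.7 ± 11.04 in zQ175 and 35.5 ± 5.02 in zQ175:CK2a'(+/-), an interaction of -0.78 ± 0.22. Hemoglobin transcripts, a sign of blood left in the vessels, summed to 0.601, 13.4 and 25.3 CPM in the CK2a'(+/-) libraries and to 0.0444 to 1.68 CPM in WT. They summed to 0.108 to 7.19 CPM in zQ175 and to 0.106 to 22.3 CPM in zQ175:CK2a'(+/-), and 2 of 4 genes had a negative interaction at p under 0.05, or 0 of 4 without WT replicates 4 and 5. The part of vessel and blood content in the vascular interactions was not tested. Choroid plexus markers had 8 of 23 on the positive side with a median of 3.19, and none on the positive side with a median of -0.36 once the 4 libraries with these markers were left out.

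The 44 tested genes within 1 megabase of Csnk2a2 had 1 member on each side and a median interaction of -0.05. The 39 genes that the study called between zQ175 and zQ175:CK2a'(+/-) gave 37 tested genes, 26 of them with an interaction at p under 0.05, a count that the choice itself favors because the same libraries enter both contrasts. The change from WT to CK2a'(+/-) uses other libraries and was not part of the choice. In it, 20 of the 37 genes (54.1%) had the same sign as within zQ175, where 49.8% of all genes did. An unadjusted p under 0.05 was obtained for 7 of the 37, where 4.48% of all genes had one. Of these 7, Csnk2a2, 4933406B17Rik, C1ql3 and Gm45640 had the same direction in both backgrounds. The other 3 had opposite directions, with log2 changes of -0.86 without and 0.93 within zQ175 for BC067074, 1.24 and -1.77 for Iqcj, and -1.17 and 1.66 for Gm2991. Iqcj, at 0.168 to 0.844 CPM in WT and 1.72 to 1.97 CPM in zQ175, is a low transcript that overlaps Iqschfp, and Gm2991 overlaps Hhla1, so their reads may be shared. Other named genes that overlap a neighbor are Htt (Msantd1), Csnk2b (Gpank1), Pea15a (Dcaf8), Cryab (Hspb2), Hoxc8 (Hoxc5), Cnp (Dnajc7), Lamp1 (Grtp1), Nptxr (Npcd) and Bag3 (2610306O10Rik).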

How the data were processed

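Striatal RNA of 18 mice was sequenced as total RNA from a stranded kit. Per the labels, reads were checked with FastQC, trimmed with Trimmomatic, aligned to GRCm38 with HISAT2 2.1.0 and counted per gene with Subread 1.6.2 after removal of duplicates, and the authors deposited raw counts without normalization. The strand setting and the annotation release are not given in the sources used here. The deposited gene lengths, other values in bases, were not used for levels. Symbols were matched for 55154 of 55421 gene identifiers.

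From these counts, filterByExpr of edgeR 4.0.16 (R 4.3.3) kept 20914 genes, libraries were scaled with TMM, and the quasi-likelihood test was run on all libraries in 1 fit with 4 groups, because the groups then share 1 estimate of the spread. Every p is two-sided and from edgeR unless DESeq2 1.42.0 or limma 3.58.1 is named, and adjusted p-values are Benjamini-Hochberg over all genes tested. Intervals are 95%. The fit was tested on simulated data. Alternatives were another normalization, filter or tool, sex-linked covariates, a replicate block and leaving out libraries. The fits without WT replicates 4 and 5, without libraries with choroid plexus markers and without zQ175 replicates 1 and 5 were chosen after seeing the data. The contrast and the gene lists were chosen with earlier results of these data known. Genes named were the CK2 subunits, Htt, sex-linked genes, genes passing FDR 0.1, the 10 lowest p per direction with a mean of at least 1 CPM and an approved symbol, genes named in the study, and the lowest 3 p of each list. Not every gene of this rule is printed. Lamp1, C1qb, Hspb8, Hspa8, 4933406B17Rik and Gm45640 fall outside it and were chosen after their values were seen. The replicate numbers pair no mice: same-numbered libraries of different groups had a mean correlation of deviations of -0.01.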

Additional observations from a re-analysis of the deposited data

Results flagged for a closer look

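BC067074 passed the interaction test with edgeR and all libraries, with a log2 interaction of 1.79. The call was lost with either sex-linked covariate, without WT replicates 4 and 5, without the libraries with choroid plexus markers and without most single libraries, and the gene is also on the list that the study called on these samples.

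Single libraries lay far from the others of their group in 13 of 168 combinations of a gene and a group of 5 libraries, or 7.74%, and chance alone flags about 1 in 20. On the low side, Slc17a7 was at 11.9 CPM in WT replicate 1, where the other WT libraries held 28.0 to 32.2 CPM. Slc30a3 and Prdm8 were at 0.0444 and 0.0888 CPM in WT replicate 4. Ppp1r1b and Drd1 were at 278 and 36.1 CPM in zQ175 replicate 1, where the others held at least 523 and 67.8 CPM. Pea15a was at 249 CPM in zQ175 replicate 5. On the high side, Slc30a3 and Prdm8 were at 10.4 and 28.8 CPM in zQ175 replicate 5, where the other zQ175 libraries held at most 1.45 and 2.16 CPM. Csnk2a1 and Pgm2l1 were at 68.4 and 144 CPM in WT replicate 2. Tmc3 was at 11.9 CPM in zQ175 replicate 4, Ctsd at 133 CPM in zQ175:CK2a'(+/-) replicate 2 and Hspa8 at 954 CPM in zQ175:CK2a'(+/-) replicate 3.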

How the results depend on the processing

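The count of genes passing FDR 0.1 in the interaction was 1 with all libraries and depended on the processing. It was 19 with DESeq2 default and 10 with no filter on low counts, where 2427 genes had an unadjusted p under 0.05 in the interaction, against 1127. It was 0 at FDR 0.05, with the Xist or the Y-linked level as a covariate, without both libraries labelled WT replicates 4 and 5, without the 4 libraries with choroid plexus markers and without zQ175 replicates 1 and 5 together. The last 3 fits, and DESeq2 without WT replicates 4 and 5 (1 gene), were chosen after seeing the data. Leaving out single libraries gave 0 to 2 genes passing. It gave 2 without WT replicate 3, 1 without zQ175 replicate 2 or zQ175:CK2a'(+/-) replicate 3 or 5, and 0 without any other library. The genes with an unadjusted p under 0.05 in the interaction then numbered 919 to 1560, the most without WT replicate 2. With a replicate block, 1 gene passed and the genes with an unadjusted p under 0.05 in the interaction numbered 896, and no call of a named gene changed. Signs turned in genes whose log2 interaction was near 0. Without WT replicates 4 and 5 it was 0.026 for Csnk2a1, 0.149 for Scn4b, 0.281 for Penk, 0.154 for Drd1 and 0.305 for Drd2, and with DESeq2 on the same libraries 0.023, 0.146, 0.278, 0.151 and 0.302. Without the libraries with choroid plexus markers it was 0.0092 for Csnk2a2, 0.046 for Csnk2a1 and -0.095 for Ppp1r1b, which was at -0.061 with the Y-linked level and -0.037 without zQ175 replicates 1 and 5. With the replicate block it was 0.068 for Penk and 0.017 for Drd2. Leaving out single libraries gave -0.113 to 0.049 for Csnk2a1, -0.255 to 0.218 for Penk, -0.451 to 0.0048 for Drd1 and -0.318 to 0.161 for Drd2. The cause was not tested.

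With 3 CK2a'(+/-) libraries and a median standard error of 0.32 on the log2 scale, small interactions were not detectable, and low genes such as Hoxc8 and Crnde rest on few reads. Sex moved with the interaction, and WT replicates 4 and 5 go against their label in striatal projection neuron genes and Tmc3. They lay with the other WT libraries for Csnk2a2 and for summed lysosome and myelin genes.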
